A study of Homo sapiens with 24 samples.

Results

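Untreated L-540 cells were compared with untreated SUP-HD1 cells, the pair of Hodgkin lymphoma (HL) lines that the study classed as sensitive to the dual PI3K/ERK inhibitor AEZS-136. Both are established human lines, and each is a single line, so a difference between them is a difference between these cultures and not between kinds of patients. The 6 arrays used here, 3 L-540 vehicle and 3 SUP-HD1 vehicle, were chosen by their labels from 24 arrays in all, and every one of them had been exposed to vehicle for 24 hours. The other arrays held L-540 and SUP-HD1 cells given 10 μM AEZS-136 for 24 hours and the lines classed as resistant, KM-H2 and L-428, under either treatment. The labels did not say whether replicates came from separate cultures, so the p-values below measure only the spread between these arrays, which may be technical. The signals are those of Illumina HumanHT-12 bead arrays, on which each probe targets a transcript. A probe was detected on an array when its detection value, 1 minus the detection p, was above 0.99, and 15275 of 47323 probes that were detected on at least 3 of the 6 arrays were tested.

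HL grows from Hodgkin and Reed-Sternberg cells, which derive mostly from germinal center B cells that have shut down the B-cell program. These cells live on NF-kB and JAK-STAT signaling, recruit other immune cells with chemokines such as CCL17, and can carry proteins of other lineages, including those of T and cytotoxic cells. How far a given HL line has moved from the B-cell program, and which of these signaling routes its transcripts reflect, differs from line to line.

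The lines stood clearly apart. Arrays of the same line correlated at 0.994 to 0.995 in L-540 and at 0.9904 to 0.995 in SUP-HD1, over the log2 signals of the tested probes, whereas L-540 arrays correlated with SUP-HD1 arrays at 0.871 to 0.881. Of the 6 pairs of lines, that range lay below each of the others, which reached 0.907 to 0.911 for KM-H2 with L-428. The tested probes were chosen by detection in L-540 and SUP-HD1, and probes seen only in KM-H2 or L-428 were left out. The order of the pairs therefore cannot rank the lines by likeness. Mean signal (330 to 357) and the share of probes detected (29.7 to 32.0%) were alike over the 6 arrays. One set of probes stood apart on the L-540 vehicle arrays: 152 tested probes for small nucleolar and Cajal body RNAs, singled out after their values were seen, had a median signal of 259 to 269 on those 3 arrays and of 126 to 148 on each of the other 21 arrays of the study. What set them apart was not tested, and counts are also given without them.

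Between the lines, 6673 of 15275 probes (43.7%) were called, that is, had a Benjamini-Hochberg adjusted p under 0.05 in limma and an absolute log2 difference of at least 0.4. Of these, 3232 (21.2% of tested probes) were higher in L-540 and 3441 (22.5%) were lower. The median absolute difference of a called probe was 0.71 on the log2 scale, against a median SD between arrays of 0.090 in L-540 and 0.105 in SUP-HD1. The signals of the lines did not overlap for 10411 probes (68.2%), and the smallest p an exact permutation test of 3 against 3 arrays can give is 0.1. Left without the small RNA probes, the fit called 6578 probes, 3138 higher and 3440 lower. The scatter of mean signals by line shows the called probes on both sides of the diagonal at every brightness.

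**Figure D1:**
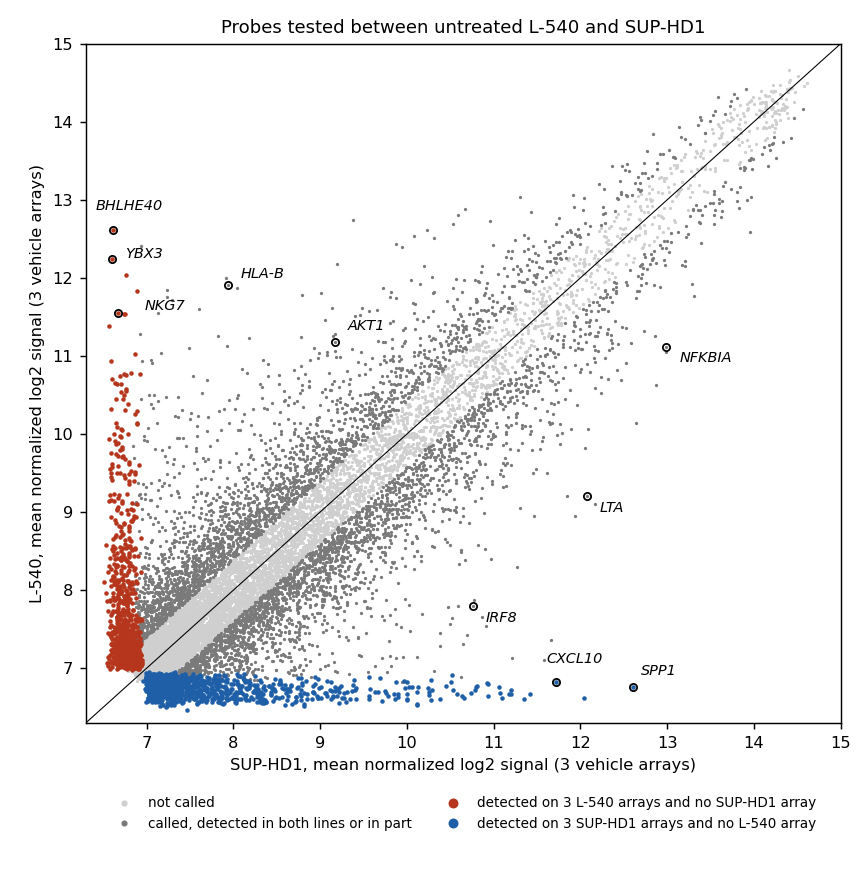
Mean normalized log2 signal of each of the 15275 tested probes in L-540 (vertical axis, 3 vehicle arrays) and SUP-HD1 (horizontal axis, 3 vehicle arrays). Grey points are probes detected in both lines or in part, dark where called; the 911 probes detected in L-540 only (red) run up the left edge and the 1055 detected in SUP-HD1 only (blue) run along the bottom edge.

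T-cell genes were split between the lines. CD247, the zeta chain of the T-cell receptor complex, gave a normalized signal of 1647, 1690.1 and 1474 in L-540 cells, against 100.4, 101 and 102 in SUP-HD1 cells. It was detected on all L-540 arrays and on no SUP-HD1 array, at least 12.9-fold higher in L-540 (adjusted p = 2.3e-13). For such probes, the fold is the mean of the line that was detected over the lowest signal of a detected probe, 122 to 126 on these arrays, and so is a lower bound. The adjusted p beside such a fold belongs to the fitted difference from background signal and does not test the bound. These probes passed the filter through 1 line alone, so their p-values are given as description only. Signals were not background subtracted. Where 1 line read not far above the lowest signal of a detected probe, the size of the log2 difference rests partly on background. This holds for DUSP5, SYT11, SMARCA2, PRDM1 and PMAIP1, among others below. CD2, an adhesion receptor of T and NK cells, read 370.0, 336 and 385 in L-540 cells, against 178, 156 and 171 in SUP-HD1 cells. Its arrays did not overlap, which was so for 68.2% of all tested probes. It was detected in both lines, with a log2 difference of 1.11 ± 0.09 (SE), adjusted p = 1.2e-07. THEMIS, a signaling protein of developing T cells, ran the other way, at 100.3, 103 and 108 in L-540 cells, against 1089, 1149 and 1081 in SUP-HD1 cells, at least 8.84-fold lower in L-540 (adjusted p = 4.4e-13). The adaptor SH2D1A, of T and NK cells, was seen in both lines at 429.5, 376 and 421 in L-540 and 1060.2, 1114 and 1161 in SUP-HD1, a log2 difference of -1.44 ± 0.09 (SE), adjusted p = 6e-09. SLAMF1, the receptor that SH2D1A binds, was also lower in L-540 (-1.38), as was the transcription factor LEF1 (at least 2.15-fold lower).

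CD3D, a chain of the T-cell receptor complex, was at background in both lines: 98.4, 97.9 and 95.6 in L-540 and 94.1, 100.2 and 99.7 in SUP-HD1, with 572, 585 and 513 in KM-H2. Of 34 genes listed for the T-cell receptor and T lineage, 29 were on the array and 12 were tested. 4 were higher in L-540 (33.3%) and 7 lower (58.3%), with a median log2 difference of -0.56, against 24.1% higher, 23.8% lower and a median of 0.01 over all 9400 genes tested, each by its brightest probe. Besides CD247 and CD2, the genes higher in L-540 were LAT (0.82, detected on 1 of 3 SUP-HD1 arrays) and CD4 (at least 1.14-fold), while GATA3 (-0.59), CD8A (at least 1.56-fold) and SIT1 (at least 1.32-fold) were lower. The 17 genes not tested, among them CD3E, CD3G, CD5, CD7, LCK and ZAP70, had signals of 89.0 to 135 over the 6 arrays. A gene passed the filter when 1 line alone detected it, so the counts over tested members describe those members and not the whole list.

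Of the cytotoxic effector genes, NKG7, PRF1 and GZMB were seen in L-540 only, while 4 others were lower there. NKG7, a granule membrane protein of NK and cytotoxic T cells, had 3091, 3208 and 2682 in L-540 cells, against 100.2, 98.2 and 108 in SUP-HD1 cells, at least 24.0-fold higher in L-540 (adjusted p = 1.1e-13). PRF1, the pore-forming perforin, had 1077, 1007 and 1101 in L-540 cells, against 100.2, 112 and 103 in SUP-HD1 cells, at least 8.53-fold higher (adjusted p = 8.4e-13). GZMB, granzyme B, had 214, 271 and 219 in L-540 cells, against 92.8, 95.8 and 97.5 in SUP-HD1 cells, at least 1.88-fold higher (adjusted p = 7.4e-08). All 3 were detected on every L-540 array and no SUP-HD1 array, and none was detected on all vehicle arrays of KM-H2 or L-428. Against them stood SERPINB9, the intracellular inhibitor of granzyme B, at 104, 109 and 101 in L-540 and 288, 326 and 289.7 in SUP-HD1, at least 2.40-fold lower in L-540. SRGN, the proteoglycan that packs granules, was bright in both lines, 1797, 1712 and 1944 in L-540 and 5901, 4828 and 5749 in SUP-HD1, and lower in L-540 by a log2 difference of -1.59 ± 0.10 (SE), adjusted p = 7.1e-09. Over 20 listed cytotoxic genes, 9 were tested. Of these, 3 were higher in L-540 (33.3%) and 4 lower (44.4%), against 24.1% and 23.8% over all genes. KLRC1 was among the lower (at least 1.28-fold). The 11 not tested, GZMA, GZMK, GNLY and FASLG among them, had signals of 91.1 to 121.

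Most of the B-lineage genes that could be tested were lower in L-540. IRF8, a transcription factor of germinal center B cells and myeloid cells, had 236, 187 and 247 in L-540 cells, against 1482, 1900.5 and 1839 in SUP-HD1 cells. Its log2 difference was -2.96 ± 0.12 (SE), adjusted p = 1e-10. Its arrays did not overlap between the lines, which was so for 68.2% of all tested probes. CD40, the receptor for T-cell help, had 97.7, 97.5 and 104 in L-540 cells, against 584, 464 and 589 in SUP-HD1 cells, and was at least 4.33-fold lower in L-540 (adjusted p = 1.2e-10). POU2AF1, an immunoglobulin gene coactivator, was at least 2.16-fold lower and BCL11A at least 2.42-fold lower, neither being detected in L-540. BCL6 (log2 difference -1.03), EBF1 (-0.77) and IKZF3 (-0.54) were lower as well, and SPIB (at least 1.38-fold) and BANK1 (at least 1.31-fold) were lower with no detection in L-540. BLK, a Src-family kinase of B cells, went the other way at 740.0, 731 and 700.3 in L-540 cells, against 96.5, 94.1 and 99.2 in SUP-HD1 cells, at least 5.81-fold higher in L-540 (adjusted p = 1.7e-12). The related kinase LYN was also higher in L-540 (1.30). In all, 16 of 36 listed B-lineage genes were tested, with a median of -0.56. Of these, 2 were higher in L-540 (12.5%) and 10 lower (62.5%), against 24.1% and 23.8% over all genes. CD40, POU2AF1, BCL11A, SPIB and BANK1 passed the filter through SUP-HD1 alone, and BLK through L-540 alone. The counts thus describe the tested members and not the whole list.

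The defining B-cell markers were near background in both lines. CD79A, the signaling chain of the B-cell receptor, was not detected by the first of its probes, with 107.4, 108 and 96.5 in L-540 and 117, 108 and 107.4 in SUP-HD1. A second CD79A probe was faint but detected, 134, 127 and 134 in L-540 and 195, 190.0 and 187 in SUP-HD1, and was called lower in L-540 (-0.53). MS4A1, CD79B, PAX5 and CD22 were not tested. PRDM1, the repressor that ends the B-cell program in plasma cells, was higher in L-540 at 1009, 954 and 1013 in L-540 cells, against 148, 193 and 161 in SUP-HD1 cells, a log2 difference of 2.58 ± 0.10 (SE), adjusted p = 6.8e-11, together with FKBP11 (1.53) and MZB1 (0.81, detected on 2 of 3 SUP-HD1 arrays), both of the secretory pathway. XBP1 was lower (-0.50, or -0.37 and not called without L-540 replicate 3), and SDC1 was close to background in both lines. The list of plasma cell genes thus held 3 higher (42.9%) and 1 lower (14.3%) of 7 tested, against 24.1% and 23.8% over all genes.

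Most markers of cells that a pure culture should lack were at background. Of 25 listed myeloid and stromal markers, 24 were on the array and 21 were not tested, with signals of 92.5 to 135.9. CD14, LYZ, S100A8, TYROBP, COL1A1, VWF, EPCAM and PECAM1 were among these. The 3 tested were detected in both lines: CSF1R, a receptor often seen in HL cells (0.97), CEBPB, a transcription factor that lymphoid lines can also express, at 1766, 1838 and 2024 in L-540 and 1379, 1228 and 1259 in SUP-HD1 (0.54), and CD68 (-0.50, with a second probe that was not called, at 0.17). In bulk samples, fewer cells of a type and less RNA per cell cannot be told apart.

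**Figure D2:**
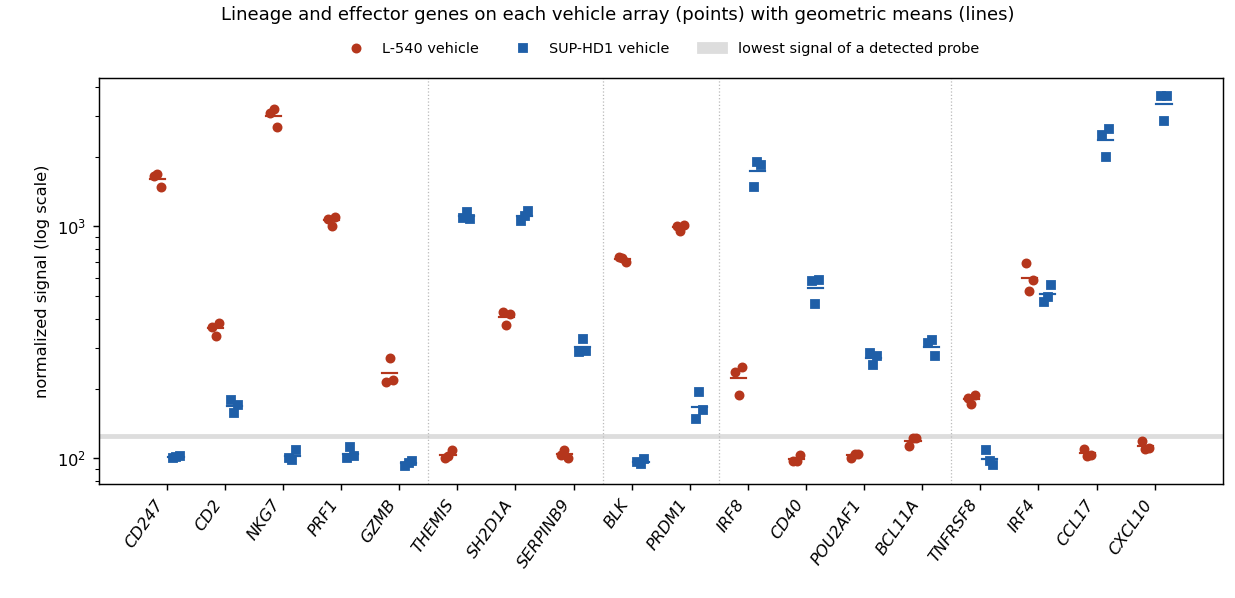
Normalized signal (log axis) of 18 lineage and effector genes on each L-540 (red circles) and SUP-HD1 (blue squares) vehicle array, with geometric means as lines; the grey band is the lowest signal of a detected probe, 122 to 126. CD247, NKG7, PRF1, GZMB and BLK lie above the band only in L-540, and THEMIS, CD40, POU2AF1, CCL17 and CXCL10 only in SUP-HD1, while the IRF4 points overlap.

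Hodgkin cell markers split by line. TNFRSF8 (CD30), the receptor that defines the disease by antibody staining, gave 181, 172 and 187 in L-540 cells, against 108, 97.3 and 93.3 in SUP-HD1 cells, detected in L-540 and not in SUP-HD1, and was at least 1.45-fold higher in L-540 (adjusted p = 1.4e-06). The same probe was not detected in KM-H2 (96.1 to 105) or L-428 (108 to 111), so it read near background in every line but L-540. IRF4, a transcription factor of Hodgkin and plasma cells, overlapped between the lines at 695, 529 and 589.6 in L-540 and 474, 497 and 560.5 in SUP-HD1, and was not called (log2 difference 0.24, 95% interval 0.01 to 0.47). CCL17, the chemokine that draws CCR4-bearing T cells, had 110.0, 103 and 103 in L-540 cells, against 2470.3, 2001 and 2627 in SUP-HD1 cells, at least 18.8-fold lower in L-540 (adjusted p = 3.4e-13). Its partner CCL22 was not detected in either line (92.5 to 106.9). The actin-bundling protein FSCN1 was seen in both lines at 2119, 2228 and 2041 in L-540 and 8303, 8351 and 7677 in SUP-HD1, a log2 difference of -1.93. EPSTI1 (-3.34), TRAF1 (-1.72), AHR (-1.62), ID2 (-1.26) and MSC (-0.99) were lower in L-540 too, and STAT6 (0.84) and NOTCH1 (0.88) were among those higher. BATF3, CD70, CD83 and LGALS1 were not called. Of 21 tested, 4 were higher (19.05%) and 11 lower (52.4%) in L-540, against 24.1% and 23.8% over all genes.

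The checkpoint ligand genes on 9p24, a region often gained in HL, were fainter in L-540. CD274, which encodes PD-L1, was not detected in L-540 at 122, 113 and 122 but was in SUP-HD1 at 264, 271 and 278, at least 2.17-fold lower in L-540 (adjusted p = 2.3e-08). PDCD1LG2 (PD-L2), from the same region, was at least 1.24-fold lower with no detection in L-540. JAK2, detected on 1 of 3 L-540 arrays, was lower by a log2 difference of -0.58. Other 9p24 genes differed more: the chromatin remodeler SMARCA2 had 144, 153 and 170.4 in L-540 cells, against 1252, 1415 and 1330.5 in SUP-HD1 cells, the glycine-cleaving enzyme GLDC had 537, 541 and 578 in L-540 and 4477, 5142 and 4195 in SUP-HD1, and PLGRKT had 569.6, 606 and 439 in L-540 and 1953, 2914 and 2809 in SUP-HD1. All 3 were detected in both lines with no overlap, which was so for 68.2% of all tested probes. SMARCA2 in L-540 lay not far above the detection limit. DOCK8 (at least 1.81-fold) and KANK1 (at least 1.38-fold) were among those higher in L-540. In total, 3 of 16 tested 9p24 genes were higher (18.75%) and 9 lower (56.25%), with a median of -0.52. Over all genes the shares were 24.1% and 23.8%, and over the genes of chromosome 9 they were 8.64% and 41.9%.

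Among chemokines, CXCL10, which attracts CXCR3-bearing T cells, had 119, 109.7 and 111 in L-540 cells, against 3635, 2855 and 3643 in SUP-HD1 cells. L-540 did not express it above detection, and it was at least 26.8-fold lower there (adjusted p = 2.3e-13). CCL5 was detected in both lines and higher in L-540, 1755, 1729.9 and 1916 in L-540 and 1034, 781 and 903 in SUP-HD1 (log2 difference 0.9986), and CXCL16 was detected in L-540 only (at least 1.90-fold higher). The receptor CXCR4 was lower in L-540 (-0.74), while CCR7 (log2 difference 0.37) and CCR6 (-0.19) did not reach the threshold of 0.4.

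Antigen presentation genes differed gene by gene. CD74, the class II invariant chain, was bright in both lines, 5007, 4188 and 5324 in L-540 and 6533, 6875 and 8448 in SUP-HD1, with a log2 difference of -0.59 ± 0.11 (SE), adjusted p = 0.00051. A second CD74 probe gave -0.48 and was called, and 1 more gave -0.36 and was not. HLA-DPA1, 4419, 3957 and 3675 in L-540 and 1723, 1414 and 1720.5 in SUP-HD1, was higher in L-540 (1.31), as was HLA-DQB1, which SUP-HD1 did not show above detection (at least 2.55-fold higher). HLA-DRA was 6399, 4998 and 5165 in L-540 and 7263, 7112 and 6889 in SUP-HD1 and was not called (-0.37). CIITA, the class II transactivator, was higher in L-540 (0.71, detected on 2 of 3 SUP-HD1 arrays). For class I, HLA-B had 3868, 3626 and 4001 in L-540 cells, against 265, 230.2 and 241 in SUP-HD1 cells, a log2 difference of 3.97 ± 0.09 (SE), adjusted p = 2.6e-13, and HLA-C the opposite sign at 393, 354 and 379 in L-540 and 893, 737 and 884 in SUP-HD1 (-1.15). HLA-F gave 2.34 by its brightest probe and 0.01 by the other. HLA genes are near copies of each other and vary between people, so a single probe can miss an allele, and these values are uncertain as transcript levels. The light chain B2M was very bright in both lines and lower in L-540 (-0.49, though -0.39 and not called with no normalization).

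Of the listed interferon-stimulated genes that could be tested, more were higher in L-540 than lower. These genes, which limit viruses, are switched on by interferons, often through a promoter element built from repeated GAAA letters. For ISG15, IFI6 and IFITM1, called higher in L-540, the RefSeq promoter (GRCh38.p14, the 250 bases before the annotated start) is printed because it holds matches, in capitals, to GAAA, any 2 bases and GAAA again, on either strand. The window of ISG15 is chr1:1013247-1013496 on the + strand with 2 matches that overlap, that of IFI6 is chr1:27672193-27672442 on the - strand with 3, and that of IFITM1 is chr11:313790-314039 on the + strand with 1.
ISG15: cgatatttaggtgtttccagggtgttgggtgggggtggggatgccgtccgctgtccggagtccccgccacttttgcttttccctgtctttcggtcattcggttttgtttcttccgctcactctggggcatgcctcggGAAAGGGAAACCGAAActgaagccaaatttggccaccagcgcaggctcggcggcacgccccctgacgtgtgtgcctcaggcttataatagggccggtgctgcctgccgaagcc
IFI6: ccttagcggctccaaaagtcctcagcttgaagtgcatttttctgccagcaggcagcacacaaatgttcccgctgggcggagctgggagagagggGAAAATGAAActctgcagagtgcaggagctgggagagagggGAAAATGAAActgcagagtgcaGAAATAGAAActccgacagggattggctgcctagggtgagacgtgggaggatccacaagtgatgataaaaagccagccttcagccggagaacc
IFITM1: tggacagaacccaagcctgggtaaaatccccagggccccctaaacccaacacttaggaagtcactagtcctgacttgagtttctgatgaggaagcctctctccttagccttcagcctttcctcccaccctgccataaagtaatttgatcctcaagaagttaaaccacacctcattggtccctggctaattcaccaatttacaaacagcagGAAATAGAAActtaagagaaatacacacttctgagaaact

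Of all 35116 promoters in the table, 3.02% held this motif within the same length. It was found in 6 of the 11 interferon-stimulated genes with a listed promoter among those higher in L-540, in 4 of 7 among those not called, and in 2 of 3 among those lower. A match is a description of the letters and not a site.

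IFITM2 and IFITM1, membrane proteins that block virus entry, stood far apart between the lines. IFITM2 read 5558, 5625 and 5136 in L-540 cells, against 127, 113.9 and 126 in SUP-HD1 cells. It was detected on 2 of the 3 SUP-HD1 arrays, at the detection limit, so its fitted log2 difference of 5.47 (adjusted p = 4.2e-14) was measured against background. IFITM1 read 2571, 3119.8 and 3303 in L-540 cells, against 98.9, 115 and 109.7 in SUP-HD1 cells, at least 24.0-fold higher in L-540 (adjusted p = 2.6e-13). The IFITM genes are near copies, so 1 probe may bind the transcript of another, and the IFITM3 probe stayed near background in both lines at 137, 119 and 137 in L-540 and 133, 123 and 111 in SUP-HD1. IFI35 (at least 9.85-fold higher in L-540), OAS2 (at least 8.78-fold higher), IFI6 (3.26), SAMD9 (at least 4.52-fold higher), ISG15 (2.30) and IFI16 (1.51) were on the same side, as were IRF7 (3.004), detected on 1 of 3 SUP-HD1 arrays, and OAS1 (1.32), detected on 2. The 5 genes called lower in L-540 were ISG20 (-1.58), IRF1 (-1.43), MX2 (-1.27, detected on 1 of 3 L-540 arrays), GBP1 (at least 1.82-fold lower) and IFIT2 (-0.47). IRF9, IFIH1, XAF1, GBP2 and BST2 were not called. The list of 36 had 29 tested genes, of which 16 (55.2%) were higher and 5 (17.2%) lower in L-540, with a median of 0.48. Shares over all genes were 24.1% and 23.8%. IFI35, IFI44, IFITM1, OAS2, OAS3, OASL, USP18, SAMD9 and SAMD9L passed the filter through L-540 alone, and GBP1 through SUP-HD1 alone. The counts thus describe the tested members and not the whole list. IRF5, which turns on interferon and cytokine genes and was not on that list, had 2555, 2388 and 2498 in L-540 cells, against 125, 117 and 124 in SUP-HD1 cells. It was detected on 1 of the 3 SUP-HD1 arrays, so its fitted log2 difference of 4.35 (adjusted p = 9.9e-14) was likewise measured against background. CXCL10 and EPSTI1, counted in other lists and not in this one, ran the other way. CXCL10 was at least 26.8-fold lower in L-540, and EPSTI1 was lower by a log2 difference of -3.34.

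Cytokine receptors and JAK-STAT genes also leaned to L-540. IL10RA, the ligand-binding chain of the interleukin 10 receptor, had 1549, 1479 and 1653 in L-540 cells, against 343, 277 and 355 in SUP-HD1 cells, a log2 difference of 2.27 ± 0.10 (SE), adjusted p = 2.9e-10. The receptor chains IFNGR2 (1.76), IL7R (1.24), IL2RA (1.198) and IL2RB (0.53) were higher in L-540. So were STAT5B (1.04), STAT4 (at least 1.70-fold higher), STAT5A (0.87), TYK2 (0.70) and the kinases PIM2 (1.30) and PIM1 (0.96), known as STAT5 targets. IL13RA1, a receptor chain for interleukins 13 and 4, was the counterexample at 94.3, 98.6 and 101 in L-540 cells, against 2647, 3068 and 2183 in SUP-HD1 cells, at least 20.8-fold lower in L-540 (adjusted p = 4.1e-13). IL3RA (-1.69, detected on 2 of 3 L-540 arrays), IL13 (at least 1.90-fold lower) and IFNGR1 (-0.83) were lower with it. JAK1, STAT3, SOCS1, SOCS3 and IL4R were not called. Of 33 tested genes, 16 were higher (48.5%) and 7 lower (21.2%), against 24.1% and 23.8% over all genes. The median of the list was 0.35.

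The feedback inhibitors SOCS2 and CISH, classic STAT5 targets, were both higher in L-540. SOCS2 had 912, 929 and 877 in L-540 cells, against 184, 201 and 187 in SUP-HD1 cells (log2 difference 2.25 ± 0.08 (SE), adjusted p = 3e-11), and CISH had 526, 516 and 481 in L-540 cells, against 166, 156 and 175 in SUP-HD1 cells (log2 difference 1.62 ± 0.08 (SE), adjusted p = 1.4e-09). The CISH promoter is shown because it held 4 matches to TTCNNNGAA, the STAT dimer motif, which reads the same on both strands. They are in capitals, and the window is chr3:50611775-50612024 on the - strand.
CISH: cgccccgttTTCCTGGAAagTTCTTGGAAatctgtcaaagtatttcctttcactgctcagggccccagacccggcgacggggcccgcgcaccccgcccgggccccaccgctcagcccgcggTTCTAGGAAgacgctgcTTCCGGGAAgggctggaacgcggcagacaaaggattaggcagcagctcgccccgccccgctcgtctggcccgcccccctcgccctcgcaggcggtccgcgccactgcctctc

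Of all promoters, 6.57% held at least 1 match. CISH was the single gene with one among 14 higher JAK-STAT genes with a listed promoter. IL3RA was the only one among 7 lower genes, and IL15RA among 9 not called.

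Genes of the NF-kB pathway, its targets included, were more often lower in L-540 than higher. LTA (lymphotoxin alpha), a cytokine of the TNF family that HL cells secrete, had 567, 620.3 and 579 in L-540 cells, against 4161, 4037 and 4791 in SUP-HD1 cells, a log2 difference of -2.88 ± 0.09 (SE), adjusted p = 7.3e-12. NFKBIA, the inhibitor that NF-kB itself induces, had 2446, 2102 and 2134 in L-540 cells, against 7711, 8463 and 8263 in SUP-HD1 cells (-1.87 ± 0.09 (SE), adjusted p = 5.3e-10). IL6 read 104, 106 and 99.3 in L-540, where it was not detected, and 551, 527 and 517 in SUP-HD1, at least 4.25-fold lower in L-540 (adjusted p = 1.5e-11). TRAF1 had 176, 173 and 188 in L-540 and 590.1, 557 and 621 in SUP-HD1, and TNF had 235, 234 and 228 in L-540 and 574, 583 and 598 in SUP-HD1, with log2 differences of -1.72 and -1.33. In none of these did the arrays of the lines overlap, which was so for 68.2% of all tested probes. EBI3 (-1.06), TNFAIP3 (-0.98), CHUK (-0.98), NFKB1 (-0.90), IKBKE (at least 1.49-fold lower) and NFKB2 (-0.57) were lower too. NFKBIB (0.70), TNIP2 (0.75), BCL3 (0.66), TNIP1 (0.63) and CCL5 (0.9986) were among those higher. Of 26 tested genes, 6 were higher (23.1%) and 13 lower (50.0%) in L-540, against 24.1% and 23.8% over all genes. The median of the list was -0.27.

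For 2 of the lower genes, the inhibitor gene NFKBIA and the deubiquitinase gene TNFAIP3, both of which feed back on NF-kB, the promoters carry the kappa B motif (GGG, any 2 bases, then TTTCC; both strands were searched) on the opposite strand, as marked in capitals. The windows are chr14:35404750-35404999 on the - strand, with 1 match, and chr6:137867009-137867258 on the + strand, with 2.
NFKBIA: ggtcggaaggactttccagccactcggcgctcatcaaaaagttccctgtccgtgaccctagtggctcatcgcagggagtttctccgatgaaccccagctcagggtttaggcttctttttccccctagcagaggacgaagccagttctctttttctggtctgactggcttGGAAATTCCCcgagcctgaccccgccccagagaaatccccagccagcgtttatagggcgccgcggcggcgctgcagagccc
TNFAIP3: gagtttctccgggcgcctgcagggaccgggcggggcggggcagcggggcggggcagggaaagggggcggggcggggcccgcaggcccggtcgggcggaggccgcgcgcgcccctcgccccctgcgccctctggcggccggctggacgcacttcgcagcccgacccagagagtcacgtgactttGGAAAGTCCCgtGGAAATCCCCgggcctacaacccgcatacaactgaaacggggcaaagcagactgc

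This motif was in 1.73% of all promoters. Among the NF-kB genes with a listed promoter it was in 4 of 12 lower in L-540 (NFKB1, NFKBIA, TNFAIP3 and IL6), in 0 of 5 higher and in 1 of 5 not called (TRAF3).

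**Figure D3:**
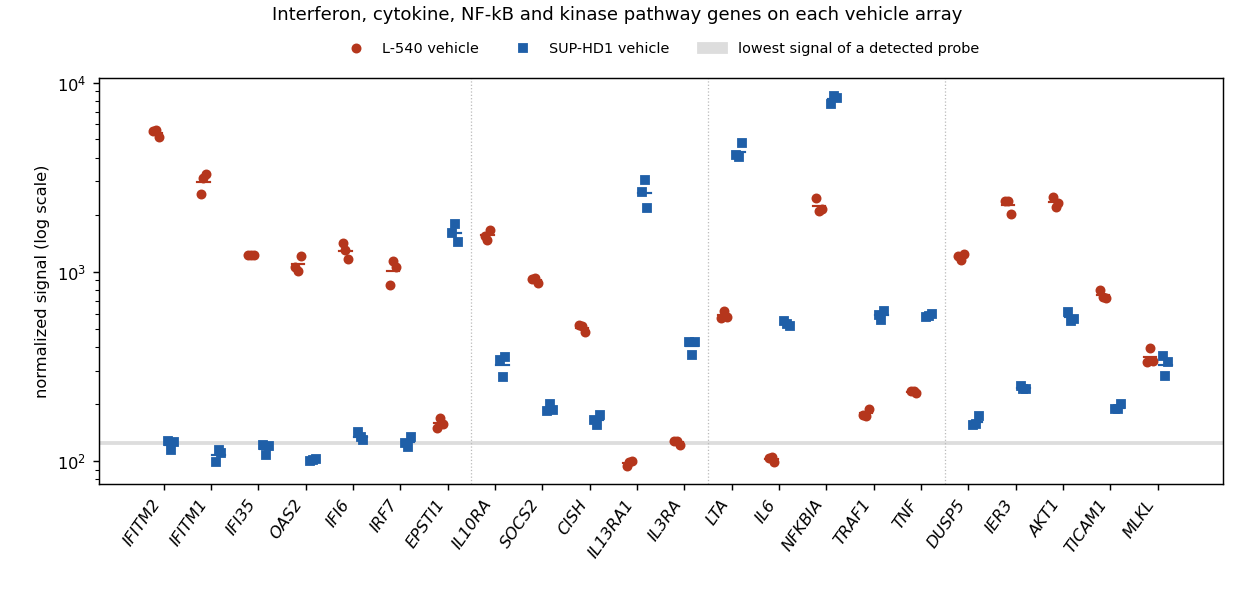
Normalized signal (log axis) of 22 signaling genes on each L-540 (red circles) and SUP-HD1 (blue squares) vehicle array, with geometric means as lines and the lowest signal of a detected probe as the grey band. Dotted lines part, from left to right, interferon-stimulated, cytokine receptor and JAK-STAT, NF-kB, and kinase and cell death genes. The 2 lines overlap only for MLKL, the only gene drawn that was not called.

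Genes of the pathways that AEZS-136 targets were compared before any exposure. AKT1, the kinase downstream of PI3K, had 2487, 2186 and 2314 in L-540 cells, against 611, 553 and 564 in SUP-HD1 cells, a log2 difference of 2.02 ± 0.09 (SE), adjusted p = 1.7e-10, and its other probe gave 2.05. Of the catalytic subunits, PIK3CD was detected in L-540 only (at least 2.97-fold higher), and PIK3CG was lower in L-540, 136.1, 130.4 and 129.8 in L-540 and 486, 728 and 455 in SUP-HD1 (-2.04). The PIK3CG signals in L-540 lay close to the detection limit, so this size rests on background. A second PIK3CG probe, not detected in L-540, gave -0.99. MTOR (1.10) and its substrate RPS6KB1 (1.04) were higher in L-540, and FOXO3, a transcription factor that AKT restrains, was lower (-0.96). Of 20 tested PI3K and AKT genes, 6 were higher (30.0%) and 2 lower (10.0%), with 12 not called. Shares over all genes were 24.1% and 23.8%.

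IER3, an early response gene induced through ERK, differed sharply between the lines: it had 2363, 2354 and 2019.5 in L-540 cells, against 250.5, 239.7 and 239 in SUP-HD1 cells, a log2 difference of 3.20 ± 0.09 (SE), adjusted p = 1.9e-12. The mean signals of KM-H2, at 419.6, and L-428, at 359, lay between. L-540 was thus the brightest of the lines for IER3 and SUP-HD1 the dimmest, and the log2 difference from the mean of the resistant lines was 2.46 for L-540 and -0.72 for SUP-HD1. Other genes that ERK signaling induces were split. DUSP5, a nuclear ERK phosphatase, had 1211, 1160.0 and 1235 in L-540 cells, against 154, 156 and 172 in SUP-HD1 cells (2.90 ± 0.08 (SE), adjusted p = 2.8e-12). Its SUP-HD1 signals were not far above the detection limit, so this size rests partly on background. SPRY1, which dampens receptor kinase signals, was detected in L-540 only (at least 3.64-fold higher), and PHLDA1 was higher in L-540 (1.55, detected on 1 of 3 SUP-HD1 arrays). ETV5 (at least 2.72-fold, with a second probe not called at -0.25) and SPRED1 (at least 1.75-fold) were detected in SUP-HD1 only and lower in L-540, as was DUSP4 (at least 1.56-fold lower). DUSP6, EGR1 and FOSL1 were close to background and not called. In all, 10 of 23 tested RAS and ERK genes were higher (43.5%) and 5 lower (21.7%), against 24.1% and 23.8% over all genes.

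Of the effectors of necroptosis, MLKL did not pass the test between the lines and RIPK3 was near the detection limit. MLKL, the protein that breaks the membrane, had 335, 397 and 339 in L-540 and 359.9, 280.2 and 333 in SUP-HD1 and was not called (log2 difference 0.14, 95% interval -0.09 to 0.37). RIPK3, the kinase that activates it, was faint: 139.7, 154 and 139 in L-540, where it was detected, and 99.9, 105 and 103 in SUP-HD1, where it was not (at least 1.16-fold higher, adjusted p = 0.00016). TICAM1, an adaptor that can feed into RIPK3, had 801, 734 and 725 in L-540 cells, against 188, 188 and 199 in SUP-HD1 cells (1.97 ± 0.08 (SE), adjusted p = 1.4e-10), although its second probe, at 0.38, was not called. MAPK8 (-0.06) and MAPK9 (-0.04), which encode JNK1 and JNK2, were not called. Of 11 tested genes, 3 were higher (27.3%) and 1 lower (9.09%). In the BCL2 family and inhibitors of apoptosis, BIRC2 was detected in L-540 only (at least 2.24-fold higher). PMAIP1 (NOXA), a sensitizer of apoptosis, had 155, 178 and 176 in L-540 cells, against 723, 727 and 639 in SUP-HD1 cells, with a log2 difference of -2.04, and BCL2 was lower in L-540 (-1.15 by its brightest probe, with 1 of its 2 other probes not called at -0.02). BCL2L1, MCL1, BAX and XIAP were not called, and 2 of 15 tested genes were higher (13.3%) and 4 lower (26.7%). Over all genes, the shares were 24.1% and 23.8%.

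Antioxidant genes were lower in L-540 more often than higher. TXNIP, an inhibitor of thioredoxin and of glucose uptake, had 95.2, 105 and 118 in L-540 cells, against 1563, 1474 and 1408 in SUP-HD1 cells, at least 11.8-fold lower in L-540 (adjusted p = 6.8e-13). PRDX6, a peroxidase, had 1432, 1233 and 1319.6 in L-540 and 3949, 4059.9 and 3971 in SUP-HD1 (-1.59), and SOD1, superoxide dismutase, had 1747, 1595 and 1779 in L-540 and 4485, 5123 and 4946 in SUP-HD1 (-1.51). TXN (-1.36), MGST3 (-1.37), PRDX3 (-0.92) and GPX1 (-0.75) were lower as well. The glutathione transferase GSTP1 was higher in L-540, 6520.1, 6779.5 and 6969.9 in L-540 and 2197, 1553 and 2281 in SUP-HD1 (1.77), with MGST2 (at least 2.29-fold), GPX4 (0.88) and GSTO1 (0.82). Of 24 tested, 6 were higher (25%) and 11 lower (45.8%), against 24.1% and 23.8% over all genes. The median of the list was -0.21. TXNIP is among the 11, although it inhibits thioredoxin and so acts against this defence. Metallothionein MT2A, which binds zinc and copper, was lower in L-540, 2323, 2571 and 2813 in L-540 and 8095, 6175 and 6354 in SUP-HD1 (-1.41).

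Sugar and lipid metabolism genes went both ways, at times between related enzymes. PFKP, the platelet-type phosphofructokinase, had 97.0, 99.3 and 93.4 in L-540 cells, against 998, 1083 and 996 in SUP-HD1 cells, at least 8.19-fold lower in L-540 (adjusted p = 4.8e-13), whereas the liver type PFKL was higher, 393, 337 and 329 in L-540 and 148, 133 and 149 in SUP-HD1 (1.30). The glucose transporter SLC2A1 had 1433, 1366 and 1469.7 in L-540 cells, against 376, 399.8 and 419.9 in SUP-HD1 cells (1.84 ± 0.08 (SE), adjusted p = 3e-10). BNIP3, a mitochondrial gene induced by hypoxia, was detected in SUP-HD1 only (at least 3.93-fold lower in L-540), and ANKRD37, also induced by hypoxia, was higher in L-540 (1.43). Glycolysis and hypoxia genes came to 6 higher (28.6%) and 5 lower (23.8%) of 21, close to the shares over all genes. Of 14 sterol and lipid synthesis genes, 5 were higher (35.7%) and 5 lower (35.7%) in L-540, against 24.1% and 23.8% over all genes. The fatty acid synthesis genes ACACA (1.51), FASN (0.79) and ACLY (0.75) were higher, as was the sterol regulator INSIG1 (1.23, with a second probe not called at 0.24), whereas the fatty acid enzymes SCD (-0.55) and ELOVL6 (-0.42) were lower. In sterol synthesis, SQLE (-0.65, with a second probe not called at -0.19) and SC5D (at least 1.30-fold) were lower.

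Adhesion molecules included 7 genes higher (43.75%) and 1 lower (6.25%) in L-540 of 16 tested, against 24.1% and 23.8% over all genes. ITGB7, the integrin chain that guides lymphocytes to the gut, had 1581, 1236 and 1207 in L-540 cells, against 121, 107.5 and 103 in SUP-HD1 cells, at least 10.7-fold higher (adjusted p = 5.7e-12). CD48 was at least 9.04-fold higher and CD58, the ligand of CD2, at least 2.57-fold higher, both being detected in L-540 only. CD44, the hyaluronan receptor, was detected in SUP-HD1 only (at least 2.08-fold lower in L-540). ITGB7 and CD9 (at least 1.35-fold higher) were also detected in L-540 only, so they passed the filter through 1 line, as did CD48, CD58 and CD44. HOX and other homeobox genes gave 4 higher (26.7%) and 7 lower (46.7%) of 15. HLX was at least 3.92-fold higher and HOXB2 at least 2.00-fold higher in L-540, and MSX1 was at least 2.26-fold lower and HOXC4 at least 1.65-fold lower. Of 32 cancer-testis antigens, 2 were tested, and the tumor antigen PRAME had 127, 108 and 122 in L-540 cells, against 1625, 1495 and 1605 in SUP-HD1 cells. It was detected on 1 of the 3 L-540 arrays, so its fitted log2 difference of -3.73 (adjusted p = 4.4e-13) was measured against background. Its other probes, detected in SUP-HD1 only, were called lower too. Cell cycle genes numbered 5 higher (23.8%) and 3 lower (14.3%) of 21, with CDK1, E2F1, PCNA and MKI67 not called. Housekeeping genes numbered 4 higher (30.8%) and 2 lower (15.4%) of 13, led by GUSB (0.99) and HPRT1 (-0.76). ACTB (-0.28) and GAPDH (-0.19) were not called by their brightest probes, although other probes of each were called lower, at -0.50 and -0.68 for ACTB and -0.46 for GAPDH.

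**Figure D4:**
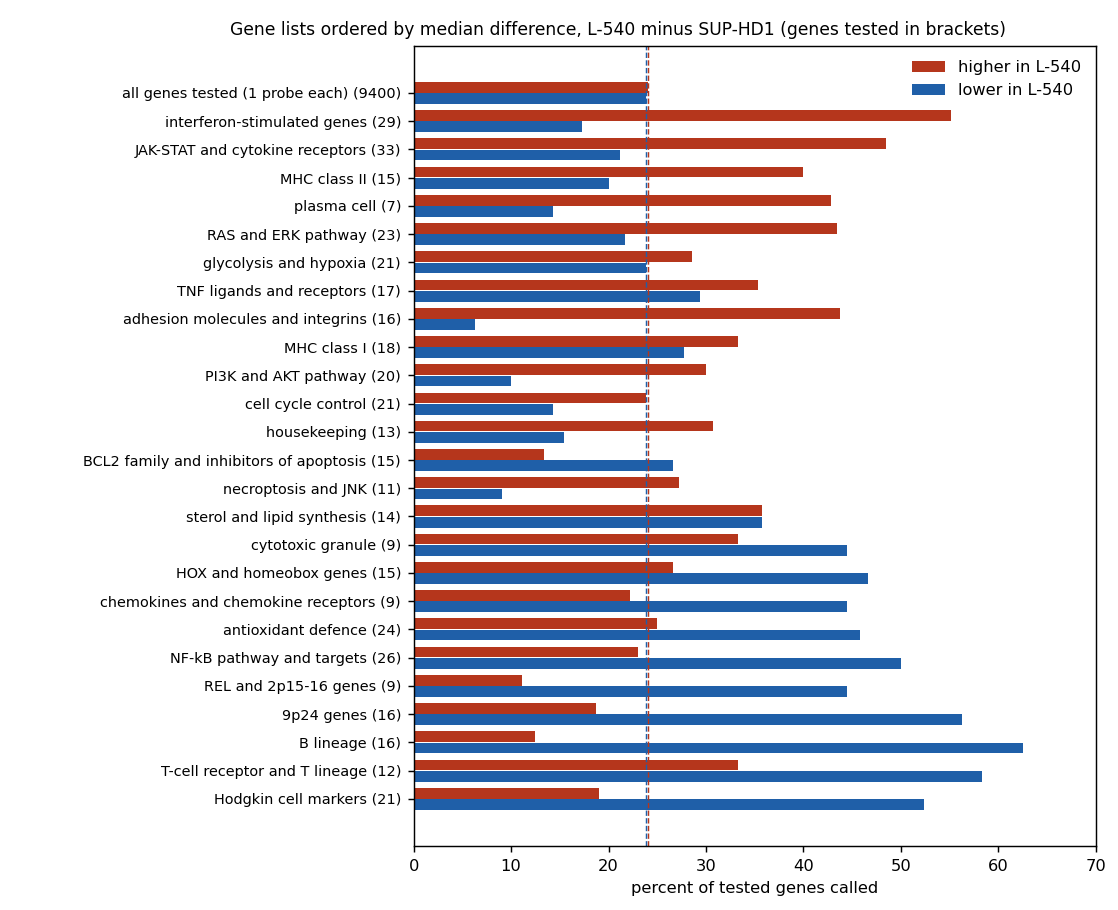
Percent of the tested genes of each list that were called higher (red, upper bar) or lower (blue, lower bar) in L-540 than in SUP-HD1, for lists with at least 7 tested genes (number in brackets), ordered by median log2 difference under the bar pair of all 9400 genes. Dashed lines mark 24.1% higher and 23.8% lower over all genes; the interferon list reached 55.2% higher and the B-lineage list 62.5% lower.

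Several genes outside the lists differed at high signal. The 12 genes with the largest fitted log2 difference in each direction are given here, and for a line without detection that fit rests on background, so they have no order among themselves. On the L-540 side, BHLHE40, a transcription factor of activated lymphocytes, had 6306, 6335 and 6169 in L-540 cells, against 106, 92.9 and 94.7 in SUP-HD1 cells. It was at least 50.4-fold higher in L-540 (adjusted p = 2.9e-14) and was detected in KM-H2 (598) and L-428 (3023) as well. YBX3, an RNA-binding protein, had 5294, 4692 and 4536 in L-540 cells, against 97.5, 91.2 and 103 in SUP-HD1 cells (at least 38.8-fold higher). S100A6, a calcium-binding protein, had 3613, 3666 and 3683 in L-540 cells, against 123, 116 and 116 in SUP-HD1 cells (at least 29.4-fold higher). ALKAL2, a ligand of the ALK receptor, had 3036, 2809 and 3094 in L-540 cells, against 105, 105 and 111 in SUP-HD1 cells (at least 23.9-fold higher, adjusted p = 4.6e-14), and neither KM-H2 nor L-428 showed it above detection. The other members were IFITM2, NKG7, IFITM1 and IRF5, given above, and the small RNAs SNORA28, SCARNA13, SNORA80E and SCARNA8. HCLS1, an actin regulator of blood cells, and PLOD2, a collagen lysyl hydroxylase, were among the 8 brightest genes detected in L-540 only, HCLS1 being at least 15.7-fold and PLOD2 at least 16.8-fold higher.

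On the SUP-HD1 side, SPP1 (osteopontin), a secreted matrix protein and cytokine, had 110.0, 107.3 and 109 in L-540 cells, against 7656, 5822 and 5390.5 in SUP-HD1 cells, at least 49.7-fold lower in L-540 (adjusted p = 1.5e-13). HGF, the growth factor of the MET receptor, had 96.7, 105 and 105 in L-540 cells, against 2323, 2281 and 2351 in SUP-HD1 cells, at least 18.5-fold lower (adjusted p = 6.7e-14). HGF was undetected in KM-H2 and L-428 too, so SUP-HD1 was the only line of the study in which its vehicle arrays showed it. ALPK2, an atypical kinase, had 102, 102 and 103 in L-540 cells, against 2796, 2835 and 2582 in SUP-HD1 cells (at least 21.9-fold lower). CAV1, the coat protein of caveolae, was detected in both lines, 129.6, 135.7 and 147 in L-540 and 2960.3, 2750.2 and 3511 in SUP-HD1, with a log2 difference of -4.48 ± 0.10 (SE), adjusted p = 3.1e-13. Its L-540 signals lay close to the detection limit, so this size rests on background. A second CAV1 probe gave -1.85, with detection on 1 of 3 L-540 arrays. SYT11 was likewise detected in both lines, 165, 159 and 170.1 in L-540 and 3004, 3738 and 2995 in SUP-HD1 (-4.29 ± 0.10 (SE), adjusted p = 3.3e-13). Its L-540 signals were also not far above the detection limit, so this size rests partly on background. TUBB2B (at least 17.5-fold), TMEM100 (at least 17.3-fold), MARCKS (at least 17.01-fold) and NAPSB (at least 15.7-fold) were detected in SUP-HD1 only and completed the 12 with IL13RA1, CXCL10 and CCL17.

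Detection itself separated the lines for 1966 probes. On all 3 arrays of L-540 and on none of SUP-HD1, 911 probes (674 genes) were detected, and on all 3 arrays of SUP-HD1 and none of L-540, 1055 probes (751 genes). Many lay close to the detection limit, with a median signal of 164 in L-540 for the first set and 162 in SUP-HD1 for the second. Of the first, 229 were at least 2-fold and 94 at least 4-fold higher in L-540, and of the second, 250 were at least 2-fold and 96 at least 4-fold lower. Leaving out the small RNA probes, 873 and 1054 remained. Just inside the filter, the 2416 probes detected on exactly 3 of the 6 arrays had a median signal of 131, and just outside it, the 1217 detected on 2 arrays had 120. The 11186 probes detected on all 6 arrays held 4887 calls (43.7%), so the share called among them equaled that over all tested probes.

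The AEZS-136 arrays of the same lines, which the choice of probes did not use, gave the line difference a second time under another condition. There 6808 of the 15275 probes (44.6%) were called between L-540 and SUP-HD1. Of the probes called under vehicle, 5089 were called the same way, which is 76.3% of the vehicle calls and 74.8% of the AEZS-136 calls, and 44 were called the other way. Of the 911 probes detected in L-540 only, 522 (57.3%) were again detected on all L-540 and no SUP-HD1 arrays, 558 were called higher in L-540 and 0 were called lower. Of the 1055 detected in SUP-HD1 only, 703 (66.6%) kept that pattern, 705 were called lower in L-540 and 1 higher. The log2 differences under AEZS-136 and under vehicle were 1.04 and 1.11 for CD2, -2.45 and -2.96 for IRF8, 1.90 and 2.02 for AKT1, and 3.73 and 3.97 for HLA-B.

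A test of the change itself, the line difference under AEZS-136 minus that under vehicle, called 2483 probes (16.3%) over 12 arrays normalized together, with 8.13% of tested probes moving toward L-540 and 8.12% toward SUP-HD1. IER3 was among them: its log2 difference between L-540 and SUP-HD1 was 1.94 ± 0.08 under AEZS-136 and 3.20 ± 0.09 under vehicle, a change of -1.13 ± 0.11 (SE), adjusted p = 4.4e-07. LTA went further apart, at -4.94 ± 0.10 under AEZS-136 and -2.88 ± 0.09 under vehicle (-2.14 ± 0.14 (SE), adjusted p = 4.1e-10), and so did PRF1, by 1.45 ± 0.11 (SE), adjusted p = 5.8e-09. Of the 152 small RNA probes, 94 were called higher and 1 lower in L-540 under vehicle, with a median of 0.75, while under AEZS-136 14 were higher and 14 lower, with a median of 0.02. In the test of the change 100 of them were called, 99 of these lower. SNORA28, which guides the modification of ribosomal RNA, had 4411, 3357 and 3345 in L-540 cells, against 148, 146 and 157 in SUP-HD1 cells under vehicle.

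**Figure D5:**
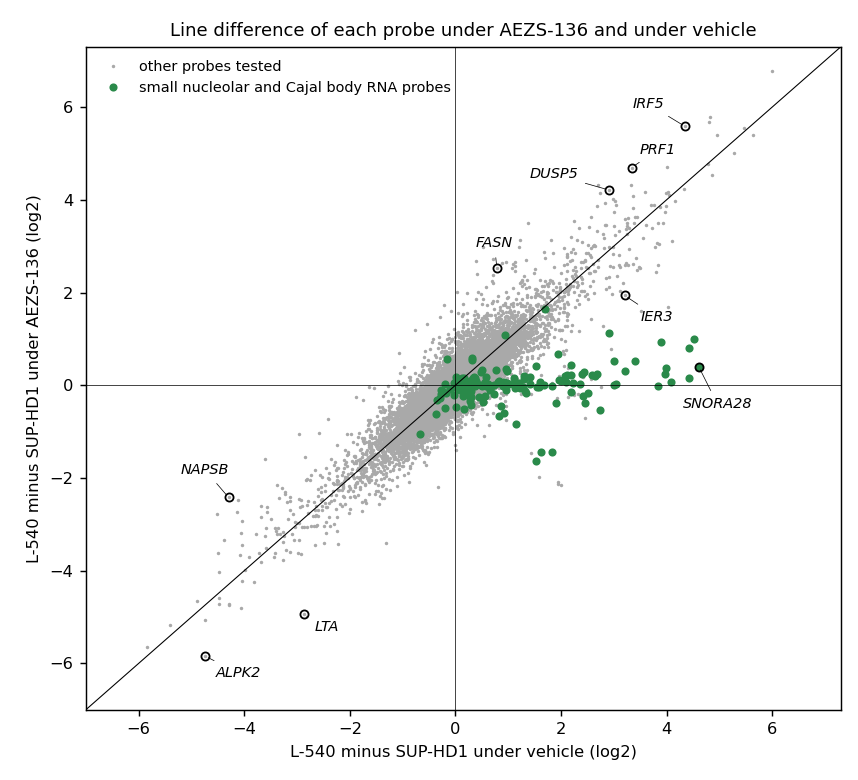
Log2 difference of each tested probe between L-540 and SUP-HD1 under AEZS-136 (vertical axis, 3 arrays each) against that under vehicle (horizontal axis, 3 arrays each), with the diagonal of equal differences. Most probes follow the diagonal, whereas the 152 small nucleolar and Cajal body RNA probes (green) spread to the right near 0 on the vertical axis.

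The vehicle arrays of KM-H2 and L-428 placed the levels of each line. L-540 differed from the mean of the resistant lines at 5467 probes (35.8%) and SUP-HD1 at 5064 (33.2%), both sharing the same resistant arrays, and KM-H2 differed from L-428 at 5599 (36.7%). These counts are over the probes chosen by detection in L-540 and SUP-HD1, which leave out those seen only in KM-H2 or L-428. Of the probes detected in L-540 only, 275 of 911 (30.2%) were detected on no KM-H2 or L-428 array, and of those in SUP-HD1 only, 275 of 1055 (26.1%). CD247, GZMB and PRF1 belonged to the first kind, with CD247 means of 111 in KM-H2 cells and 106 in L-428 cells. The share over all tested probes was not counted. Both sets were faint, with median signals of 164 and 162, so these shares do not measure expression particular to a line. For HLA-B it was SUP-HD1 that stood apart: the log2 difference from the resistant lines was 0.13 for L-540 and -3.81 for SUP-HD1, where KM-H2 averaged 3793 and L-428 averaged 2906. For LTA it was L-540, at -2.60, with SUP-HD1 at 0.28. CCL17 was not detected in L-540 and lay at 2001 to 2627 in SUP-HD1, below the mean of 8453 in L-428 and above that of 199 in KM-H2. The order was the same for THEMIS, undetected in L-540 and at 1081 to 1149 in SUP-HD1, with 1829 in L-428 and 397 in KM-H2.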

How the data were processed

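The lines, treatments and array numbers were taken from the labels. Per the labels and file headers, the deposited intensity values were Illumina HumanHT-12 V4 probe signals from BeadStudio (version not given in the sources used here), neither normalized nor background subtracted, and the deposited detection values (a fraction, 1 minus the detection p) stood beside them. The authors' series matrix of log2 values, made by robust spline normalization in lumi per the methods, served as an alternative, and each of its 24 columns correlated best with its own array. Log2 signals of the 6 vehicle arrays were quantile normalized. Probes with a detection value above 0.99 on at least 3 arrays were fitted in limma 3.58.1 (R 4.3.3) with 2 group means, 4 residual and 9.15 prior degrees of freedom, and p-values were adjusted by Benjamini-Hochberg over all 15275 probes. The thresholds of an adjusted p of 0.05 and a log2 difference of 0.4 are those of the methods, which used a t-test. The AEZS-136 arrays, the 12 arrays of both treatments and the 12 vehicle arrays were each normalized and fitted by themselves.

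Probes were named through GEO's platform annotation, in which 30113 of 47323 probes had 1 symbol, 8 had several and 17202 had none. A gene was represented by its probe with the highest mean signal. The named genes were members of the lists, the 12 with the largest log2 difference each way and the 8 brightest detected in each line only. The members and lists were chosen with earlier results of these data known. On simulated data with 200 changed probes, 59.7%, 97.0% and 100% of those changed by 0.5, 1 and 2 on the log2 scale were called, as were 0.033% of unchanged probes. The comparison of the lines called 6673 of 15275 probes, and recovery at such a share was not tested. The number of arrays limits the precision.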

Additional observations from a re-analysis of the deposited data

Results flagged for a closer look

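The difference between L-540 and SUP-HD1 changed between treatments for 19 of the 324 named genes, by an adjusted p under 0.05 in limma and at least 1 on the log2 scale in the test of the change (the line difference under AEZS-136 minus that under vehicle, 6 arrays each). Unless said otherwise, the values are such log2 changes. Over all tested probes, changes of at least 1 were not counted, and the 16.3% given above is for at least 0.4. The 19 genes therefore cannot be read as many or few.

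For the small RNA genes, the excess of L-540 over SUP-HD1 was smaller under AEZS-136 than under vehicle: SNORA80E changed by -4.19, SNORA28 by -4.14, SCARNA8 by -3.55 and SCARNA13 by -3.45, and under AEZS-136 SCARNA8 was still 0.81 higher in L-540. What set these probes apart on the L-540 vehicle arrays was not tested. Of the immune genes, LTA changed by -2.14 and SH2D1A by -1.24, both moving further below SUP-HD1, while PRF1 (1.45), IRF5 (1.34) and PRDM1 (1.19) moved further above it. TNFSF10, which encodes the death ligand TRAIL, changed by 1.24 and BST2, an interferon-stimulated gene that tethers viruses, by 1.004, and neither had been called under vehicle. The ERK phosphatase DUSP5 changed by 1.45 and IER3 by -1.13. The lipid synthesis genes FASN (1.76) and ACACA (1.10) and the sterol regulator INSIG1 (1.07) changed toward L-540, while ACLY, at 0.23 ± 0.14 (SE), adjusted p = 0.26, did not pass the test. HLX changed by 1.09, ALPK2 by -1.19 and NAPSB by 1.82. For PRF1, HLX, ALPK2, NAPSB and IRF5, a line without detection on some or all vehicle arrays enters with a signal at background, so these sizes are no true folds.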

How the results depend on the processing

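Of the settings run, none turned round the direction of a called gene named above or moved the count of 6673 called probes by over 1.5 times, except a minimum of 1 on the log2 scale, which left 1837 (907 higher and 930 lower in L-540). With other normalizations, filters, fits, the methods' t-test or the authors' log2 values, counts ran between 6265 and 6725, while normexp background gave 9406 and no minimum fold change 9805. Without any 1 vehicle array, 6579 to 6830 probes were called, 3198 to 3298 higher and 3381 to 3532 lower. Leaving out the small RNA probes, a setting chosen after seeing the data, gave 6578. Under AEZS-136, 6756 to 6916 probes were called without any 1 array, and in the test of the change 2296 to 2560, with 1847 under median scaling and 2879 with no minimum fold change. Of the 324 named genes, 4 fell short of the threshold with no normalization, 3 with the methods' t-test, 2 with median scaling, 2 with the authors' values and up to 4 without 1 array, among them XBP1 and B2M, and normexp background added 38 calls.

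Detection in 1 line only depended on the limit. At a stricter detection value, 823 probes were detected in L-540 only and 695 in SUP-HD1 only. Asking for a log2 difference of at least 1 as well left 285 and 322, and without any 1 vehicle array the numbers were 979 to 1087 and 1138 to 1270. Many of these probes lie near background, where detection is uncertain.

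Arrays with the same number did not deviate together (correlations of -0.059, -0.143 and -0.047 between the lines). No pairing by number was thus seen, but this cannot exclude that such arrays were handled together. With array number as a replicate block, 6673 probes were called, 3231 higher and 3442 lower in L-540, 6808 under AEZS-136 and 2449 in the test of the change. The block changed the call of none of the 324 named genes.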

Other observations

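Called probes were spread unevenly over the chromosomes, which were taken from the GRCh38.p14 annotation of each gene. On chromosome 21, 134 probes were tested, of which 52.2% were higher and 8.21% lower in L-540, with a median log2 difference of 0.42 under vehicle. The median was 0.44 under AEZS-136. Against the mean of KM-H2 and L-428, the median of these probes was -0.05 for L-540 and -0.42 for SUP-HD1, so it was SUP-HD1 that lay away from the resistant lines. On chromosome 20 the median was 0.23, with 31.6% higher and 12.5% lower. Chromosomes 9, 10, 8 and 14 leaned the other way, with medians of -0.29, -0.28, -0.26 and -0.25. On chromosome 9, 9.20% of 500 probes were higher and 38.8% lower in L-540, against 21.2% and 22.5% over all tested probes. The numbers of chromosomes carried by each line were not measured here.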
